A study of Mus musculus with 6 samples.

Results

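The TAM receptors Tyro3, Axl and Mertk are receptor tyrosine kinases of macrophages and other phagocytes. They do not touch a dying cell directly. The vitamin K-dependent proteins Gas6 and protein S (Pros1) bind phosphatidylserine on the surface of the dying cell and the receptor on the phagocyte, and so bridge the pair. Mfge8 is a bridge of a different kind, which binds phosphatidylserine and the alpha v integrins. These pair the alpha v subunit (Itgav) with beta 3 (Itgb3) or beta 5 (Itgb5). In brain, Mertk and Axl are known for the clearance of apoptotic cells and myelin debris by microglia and for the damping of inflammatory signals. The set described here is these 9 genes, named by symbol and joined by Ensembl identifier to the count table of 24984 genes. All 9 were found, 3 receptors, 2 TAM ligands, and the 4 genes of the integrin arm.

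The libraries came from microglia of male C57BL/6J mice aged 10 weeks, marked wt (wild type) in the authors' column headers for both time points. Each mouse had received 2 µl of 1% LPC (lysolecithin), which destroys myelin where it is injected, into the corpus callosum. Cells that were alive, CD11b+, Ly6G-, CD3- and low for CD45 were sorted from the lesion after 3 days (LPC day 3, the early lesion, 3 libraries) or 10 days (LPC day 10, the late lesion, 3 libraries), and the design text gives 3 mice per time point. All animals in the sample list carried the lesion, so the comparison is between the late and the early lesion, not between lesion and uninjured tissue. In RNA from sorted bulk cells, fewer cells of a type and less RNA per cell cannot be told apart.

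Library totals ran from 5890081 to 9212197 counts assigned to genes. LPC day 10 replicate 3 stood apart. It had a count for 10416 genes, against 12691 to 16013 in the other libraries. Across genes, which are not independent replicates, its Pearson correlations of log2 CPM with the other libraries were 0.549 to 0.619, against 0.616 to 0.732 for the remaining pairs. Its TMM scaling factor was 0.637, against 0.906 to 1.46. Member changes and list medians are given with and without it. Mitochondrial rRNA took 14.5% of its counts and 9.32% of those of LPC day 10 replicate 1, against 27.1% to 32.9% in the others. LPC day 10 replicate 1 also had the highest TMM factor and the most genes with a count, and it held the highest levels of Gas6, Itgb3, Itgb5 and Mfge8. The part of this difference in those levels was not tested. The 13 microglia markers summed to 26406 to 28867 CPM (counts scaled by TMM to a common library size) at day 3 and to 16390, 17457 and 45880 in the late lesion, highest in LPC day 10 replicate 3, and none of them was at 0 in all libraries.

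Mertk had the highest mean level of the 9 genes at both times, and Axl was the one gene of the set whose late libraries all exceeded its early ones. Between genes, levels were compared per kilobase of exon. At day 3 the order was Mertk with 190.4 ± 18.8 CPM per kilobase (SD, n = 3), Itgb5 with 116.3 ± 18.4, Pros1 with 94.8 ± 53.2, Gas6 with 39.9 ± 12.4, Axl with 39.0 ± 16.8, Itgb3 with 36.1 ± 12.96, Itgav with 19.5 ± 3.06 and Mfge8 with 0.804 ± 0.457. Itgb5 and Pros1 overlapped in their spread, as did Gas6, Axl and Itgb3. At day 10 the mean of Axl, with 83.1 ± 6.74 CPM per kilobase, came after those of Mertk with 251.7 ± 140.9 and Itgb5 with 139.3 ± 81.8, and its libraries overlapped with those of Itgb5. Itgb5 exceeded Mertk in LPC day 10 replicate 1, with 227.6 against 162.5 CPM per kilobase. Pros1, Gas6, Itgb3 and Itgav, between 23.9 and 43.8 CPM per kilobase in the mean, did not separate from each other beyond their spread at day 10.

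**Figure D1:**
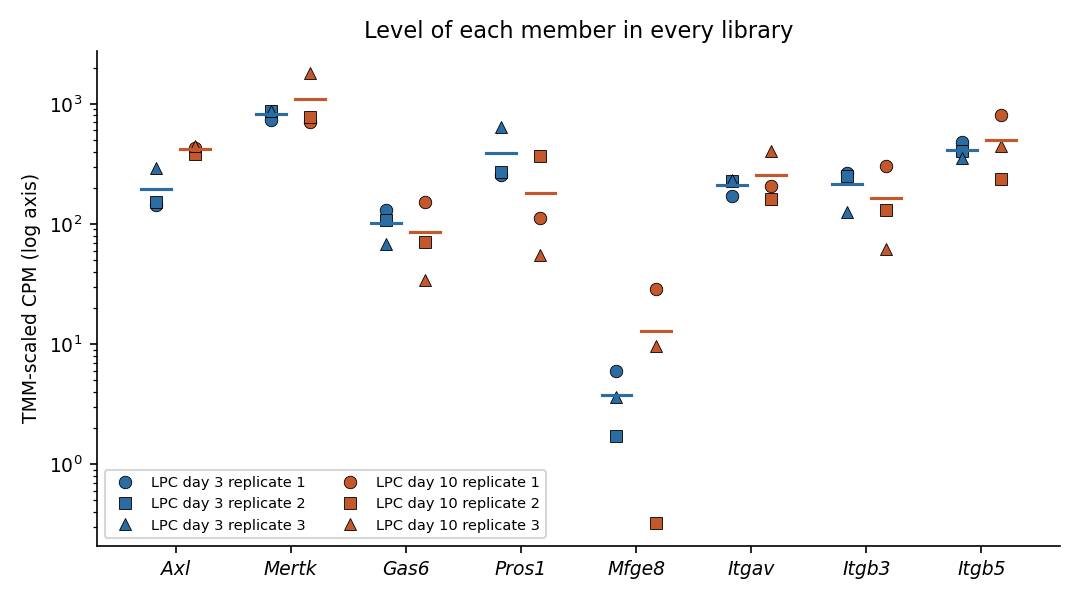
TMM-scaled CPM (log axis) of 8 members in each library, with blue for LPC day 3, orange for LPC day 10, 1 symbol per replicate and a line at the mean of the 3 libraries. For Axl the late libraries (381.0 to 447.5 CPM) all exceeded the early ones (144.1 to 293.6 CPM), while the time points overlapped in the other genes. Tyro3, at 0 in 5 libraries, is not drawn.

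Promoter windows of 300 bases (RefSeq, GRCm38.p6, 250 bases before to 50 after a start, written along the gene's strand) were matched for 8 of the 9 members. A start need not be that of the gene as positioned below, and the Tyro3 window (chr2:119799264-119799563) lay inside the gene. Those of the abundant receptor Mertk, of Axl with its higher day 10 level, and of Gas6, whose level followed that of Itgb3, are printed. Capitals mark GGGCGG or its reverse complement CCGCCC, the GC box bound by Sp1 and KLF factors. They lie at chr7:25788684-25788983 on the minus strand for Axl, chr2:128698665-128698964 on the plus strand for Mertk and chr8:13494486-13494785 on the minus strand for Gas6.
Axl: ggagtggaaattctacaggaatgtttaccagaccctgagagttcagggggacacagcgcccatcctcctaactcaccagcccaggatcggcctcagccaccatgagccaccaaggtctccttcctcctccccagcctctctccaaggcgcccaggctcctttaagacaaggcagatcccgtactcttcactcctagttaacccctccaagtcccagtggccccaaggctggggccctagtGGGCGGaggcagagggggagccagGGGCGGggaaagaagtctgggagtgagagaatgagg
Mertk: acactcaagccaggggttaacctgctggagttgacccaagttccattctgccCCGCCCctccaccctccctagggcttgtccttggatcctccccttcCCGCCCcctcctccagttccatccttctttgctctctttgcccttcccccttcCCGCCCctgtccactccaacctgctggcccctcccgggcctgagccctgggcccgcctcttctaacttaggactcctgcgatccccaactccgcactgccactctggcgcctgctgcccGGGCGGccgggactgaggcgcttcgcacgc
Gas6: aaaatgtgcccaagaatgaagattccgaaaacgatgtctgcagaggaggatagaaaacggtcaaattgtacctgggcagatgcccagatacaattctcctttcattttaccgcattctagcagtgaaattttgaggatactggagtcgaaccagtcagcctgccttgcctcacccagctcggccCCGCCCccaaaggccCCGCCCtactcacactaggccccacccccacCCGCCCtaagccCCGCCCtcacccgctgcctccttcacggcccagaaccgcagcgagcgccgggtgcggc

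The GC box was found 2 times in the Axl window, 4 times in the Mertk window and 4 times in the Gas6 window. Each of the 8 matched windows held at least 1, against 35.7% of 32851 promoter windows of the same length. The windows of the 8 members were 58.3% to 73.3% G or C, with a median of 52.7% over all windows. Searched on both strands, the AP-1 motif TGANTCA (in 7.81% of all windows) and the nuclear receptor half-site AGGTCA (16.3%) had no match in the 8, and the PU.1 motif GAGGAAGT (3.202%) had 1, in the Itgav window. A match in letters is a description and not a measured binding site.

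Axl (ENSMUSG00000002602, GRCm38 chromosome 7, 25757273 to 25788705, minus strand), the TAM receptor that macrophages raise under inflammatory stimuli, had 144.1, 151.0 and 293.6 CPM in the early lesion (replicates 1, 2 and 3, here and throughout). At day 10 it had 426.0, 381.0 and 447.5 CPM. The lowest day 10 library lay above the highest day 3 library. The log2 fold change, day 10 minus day 3, came to 1.09 ± 0.77 (SE over 3 and 3 libraries, edgeR adjusted p = 0.999), against 1.01 once LPC day 10 replicate 3 was left out (edgeR adjusted p = 0.926). It was not called in either fit. The groups also did not overlap with RLE, upper-quartile or library-size scaling. With library-size scaling the gap was narrow, at 285.2 CPM in LPC day 10 replicate 3 against 265.9 CPM in LPC day 3 replicate 3. Of 10535 genes tested, 3.47% showed such a gap upward, and 1 of the 8 tested members did. In the authors' FPKM (fragments per kilobase of exon, scaled to library size), Axl had 30.1 to 52.5 at day 3 and 56.1 to 121.9 at day 10. The authors' deposited table gave Axl a log2 fold change of −1.14 as day 3 minus day 10 with an unadjusted p of 0.0435. Among its 24984 genes, 4.08% had an unadjusted p under 0.05.

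Mertk (ENSMUSG00000014361, chromosome 2, 128698956 to 128802894, plus strand), the receptor that resident macrophages use to engulf apoptotic cells, had 731.6, 866.2 and 878.4 CPM in the early lesion. In the late lesion the values were 704.6, 773.9 and 1795 CPM. LPC day 10 replicates 1 and 2 lay just under or among the day 3 libraries, and replicate 3 stood above all others. On the log2 scale the change was 0.40 ± 0.68 (SE over 3 and 3 libraries, edgeR adjusted p = 0.999), against −0.19 once LPC day 10 replicate 3 was left out, so the sign rested on that library. Without that library, the highest level of Mertk was 1.25 times its lowest, the narrowest span of the 8 tested members. In raw counts it had 6086 to 7448 over the 6 libraries.

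Tyro3 (ENSMUSG00000027298, chromosome 2, 119797733 to 119818104, plus strand), the TAM receptor known mainly from neurons, had 2 counts in LPC day 3 replicate 1 and 0 in the other 5 libraries. A count of 0 allows up to 3 counts, which is 0.314 to 0.807 CPM in the day 10 libraries and at most 0.427 CPM in the day 3 libraries without a count. These limits cover counting error only. Tyro3 did not pass the low-count filter and was not tested, and no fold is given.

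Within a library, the count of Axl relative to Mertk does not depend on the scaling between libraries. In the early lesion it came to 0.197, 0.174 and 0.334, and in the late lesion to 0.605, 0.492 and 0.249. Both LPC day 10 replicates 1 and 2 lay above the day 3 libraries, and replicate 3, where Mertk was high, lay between them. The log2 ratio was −2.15 ± 0.50 at day 3 and −1.25 ± 0.67 at day 10 (SD, n = 3). The difference was 0.90 (two-sided exact permutation test, p = 0.2, and 0.5 after Benjamini-Hochberg adjustment over the 3 ratios computed). The smallest p that 3 against 3 libraries can give is 0.1. The difference was 1.27 without LPC day 10 replicate 3.

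The TAM ligands did not separate by time point, and both were lowest in LPC day 10 replicate 3. With TMM scaling they ranked the other 5 libraries in opposite order, but with library-size scaling both were higher in replicate 1 than in replicate 2 of day 3. Gas6 (ENSMUSG00000031451, chromosome 8, 13465374 to 13494490, minus strand), which activates all TAM receptors, had 130.0, 107.5 and 67.4 CPM in the early lesion. In the late lesion the values were 151.9, 70.9 and 33.9 CPM, so that both the highest and the lowest library were of day 10. The fitted log2 fold change was −0.25 ± 0.94 (SE over 3 and 3 libraries, edgeR adjusted p = 0.999), against 0.10 once LPC day 10 replicate 3 was left out. An exonic stretch of 34 bases overlaps Tmem255b on the opposite strand, and since the strand of the libraries is not given, reads there cannot be told apart.

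Pros1 (ENSMUSG00000022912, chromosome 16, 62854307 to 62929346, plus strand), which encodes protein S, an anticoagulant cofactor that activates Mertk and Tyro3, had 254.3, 269.9 and 638.8 CPM in the early lesion. In the late lesion the values were 112.3, 369.9 and 55.4 CPM. Its highest library was of day 3 and its lowest pair of day 10, but LPC day 10 replicate 2 lay above 2 of the day 3 libraries. The log2 fold change was −1.11 ± 0.83 (SE over 3 and 3 libraries, edgeR adjusted p = 0.999), −0.71 without LPC day 10 replicate 3 and −2.23 without LPC day 10 replicate 2, and Pros1 was called in none of these fits. In LPC day 3 replicate 3, where Pros1 was highest, 4 neutrophil markers summed to 82.8 CPM, against at most 0.269 in the other libraries, and S100a8 alone had 55.0 CPM. The sum was 0.108 CPM in LPC day 10 replicate 2, where Pros1 was second highest, and 0.269 in LPC day 10 replicate 3, where it was lowest. The part of other cells in the Pros1 level was not tested.

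For Gas6 over Pros1, count ratios of 0.511, 0.398 and 0.106 in the early lesion stood beside 1.35, 0.192 and 0.612 in the late one. LPC day 10 replicate 1 was the one library with more Gas6 than Pros1 counts. The log2 ratio differed by 0.96 between time points (−1.85 ± 1.22 at day 3 and −0.88 ± 1.42 at day 10, SD, n = 3, two-sided exact permutation test, p = 0.4, adjusted over the 3 ratios 0.5). It was 0.26 without LPC day 3 replicate 3, 0.30 without LPC day 10 replicate 1, 1.71 without LPC day 10 replicate 2 and 0.87 without LPC day 10 replicate 3.

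Mfge8 (ENSMUSG00000030605, chromosome 7, 79133768 to 79149060, minus strand), the integrin bridge, which in brain is known from astrocytes as well as microglia, was scarce. It had 61, 12 and 30 counts at day 3 and 273, 3 and 36 counts at day 10. Scaled, these were 5.99, 1.71 and 3.62 CPM in the early lesion and 28.6, 0.323 and 9.68 in the late one. The day 10 libraries held the highest and the lowest level, 88.5 times apart. On the log2 scale the change was 1.76 ± 1.86 (SE over 3 and 3 libraries, edgeR adjusted p = 0.999), 1.89 without LPC day 10 replicate 3 and 0.39 without LPC day 10 replicate 1. In LPC day 10 replicate 1, where Mfge8 was highest, oligodendrocyte markers (6 of 7 in the count table) summed to 114.2 CPM, against 15.6 to 72.2 CPM elsewhere. The second highest sum, 72.2 CPM, was in LPC day 10 replicate 2, where Mfge8 was lowest, and the lowest was in replicate 3, where Mfge8 had 9.68 CPM. Of this list, Cldn11 was at 0 in all libraries. In LPC day 10 replicate 1 the astrocyte markers (6 of 7) had a sum of 67.6 CPM. The day 3 sums ran from 31.8 to 128.5 CPM. In every library most of the astrocyte sum came from Slc1a3 (66.0 CPM in LPC day 10 replicate 1), and Gja1 was at 0 throughout. This sum, and so mainly Slc1a3, did not follow Mfge8. The part of oligodendrocytes or astrocytes in the Mfge8 level was not tested.

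The integrin subunits had counts in all libraries, and their time points overlapped. Itgav (ENSMUSG00000027087, chromosome 2, 83724397 to 83806916, plus strand), the alpha v subunit, had 171.1, 226.3 and 229.8 CPM in the early lesion and 205.5, 160.9 and 404.8 in the late one. As with Mertk, LPC day 10 replicate 3 alone stood above the day 3 libraries with TMM scaling. With library-size scaling LPC day 10 replicate 1 did so too, for Itgav at 300.5 CPM against at most 228.8 and for Mertk at 1030.6 against at most 875.8. The fitted log2 fold change of Itgav was 0.30 ± 0.79 (SE over 3 and 3 libraries, edgeR adjusted p = 0.999). Leaving out LPC day 10 replicate 3 turned this change to −0.22. Exons of Itgav overlap the non-coding Gm13684 on the opposite strand over 634 bases.

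Itgb3 (ENSMUSG00000020689, chromosome 11, 104608000 to 104670476, plus strand), the beta 3 subunit, also part of the platelet fibrinogen receptor, had 263.2, 251.1 and 125.1 CPM in the early lesion. In the late lesion the values were 304.3, 131.4 and 61.6 CPM (log2 fold change −0.36 ± 0.84, SE, n = 3, edgeR adjusted p = 0.999, against −0.00449 once LPC day 10 replicate 3 was left out). The platelet marker Gp9 had 24.1 and 26.9 CPM in LPC day 3 replicate 3 and LPC day 10 replicate 3, where Itgb3 was lowest, and at most 4.09 CPM elsewhere. Gp1ba of the same list was highest in LPC day 10 replicate 1, at 1.05 CPM, where Itgb3 was highest. The part of platelets in the Itgb3 level was not tested.

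Itgb5 (ENSMUSG00000022817, chromosome 16, 33829665 to 33949338, plus strand), the beta 5 subunit, had 483.5, 401.7 and 354.2 CPM in the early lesion and 808.8, 234.6 and 441.9 in the late one. Its day 10 libraries reached from below to above those of day 3 (log2 fold change 0.26 ± 0.74, SE, n = 3, edgeR adjusted p = 0.999). The change was 0.30 without LPC day 10 replicate 3, −0.30 without LPC day 10 replicate 1 and −0.24 with sample quality weights in limma-voom. Per kilobase, Itgb5 exceeded Itgb3 in every library, by 2.66 to 4.70 times in 5 libraries and by 11.9 times in LPC day 10 replicate 3. The log2 ratio of their counts was 1.02 ± 0.43 at day 3 and 1.70 ± 1.03 at day 10 (SD, n = 3). The difference was 0.68 (two-sided exact permutation test, p = 0.5, adjusted over the 3 ratios 0.5) and 0.10 without LPC day 10 replicate 3.

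**Figure D2:**
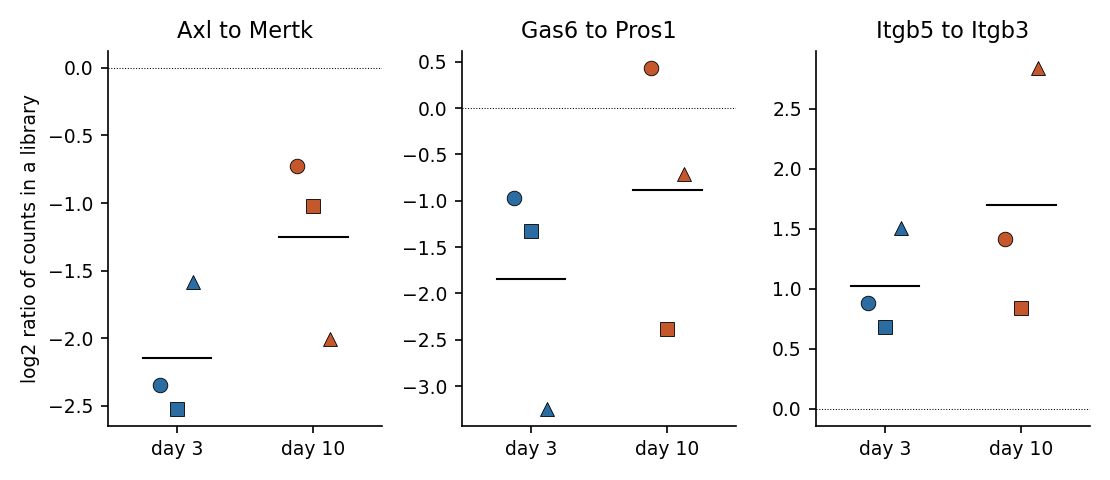
Log2 ratio of the counts of a pair of genes within each library, at day 3 (blue) and day 10 (orange), with 1 symbol per replicate (circle 1, square 2, triangle 3) and a line at the mean. Axl to Mertk was highest in LPC day 10 replicates 1 and 2 (−0.73 and −1.02), and Itgb5 to Itgb3 was highest in LPC day 10 replicate 3 (2.84).

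Read together, 8 of the 9 members were tested, and 0 were called in edgeR's quasi-likelihood test (adjusted p under 0.05), against 0.114% of all genes tested. On simulated data the same fit called 0% of genes at an upward log2 fold change of 1 and 2% at 2. Changes of the members' size would thus rarely be called, and 0 called does not show that the members were unchanged. Of the 8, 0 had an unadjusted p under 0.05, against 6.13% of all genes. Positive changes were found for 5 and negative ones for 3, with a median log2 fold change of 0.28 beside 0.00 over all genes. Without LPC day 10 replicate 3, 4 were positive and 4 negative and 0 were called, against 0.00821% of all genes in that fit. DESeq2, limma-voom, limma-voom with sample quality weights and limma-trend on FPKM also called 0 members. Of 10535 genes, the first 3 of these fits called 63, 1 and 3, and limma-trend on FPKM called 0 genes. With sample quality weights, limma-voom gave Axl its lowest unadjusted p of all fits (log2 fold change 1.19, limma adjusted p = 0.958).

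**Figure D3:**
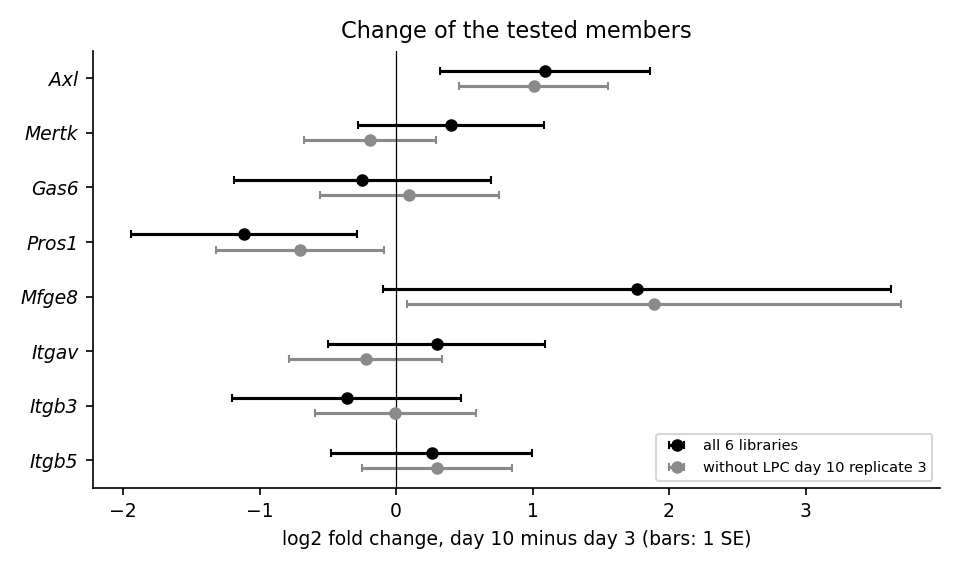
Log2 fold change (day 10 minus day 3) of the 8 tested members in edgeR, with bars of 1 SE, from all 6 libraries (black) and without LPC day 10 replicate 3 (grey). Mertk, Gas6 and Itgav changed sign without that library, and Axl stayed at 1.09 and 1.01.

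Although the time points overlapped in every tested member but Axl, some members followed each other from library to library. Likeness was measured as the root mean square difference of log2 CPM, each gene centred on its mean over the 6 libraries, against 7821 genes with a mean of at least 5 CPM. A shift in the scaling of a library moves both genes of a pair alike. Gas6 and Itgb3 were the closest pair of members, with a difference of 0.12 on the log2 scale. Itgb3 ranked 1 of the 7821 genes by likeness to Gas6, where the median gene was 1.48 away. Both were highest in LPC day 10 replicate 1 and ranked the libraries in the same order, through LPC day 3 replicate 1, LPC day 3 replicate 2, LPC day 10 replicate 2 and LPC day 3 replicate 3 to LPC day 10 replicate 3. The Gas6 count was 0.494, 0.428 and 0.539 times the Itgb3 count at day 3 and 0.499, 0.540 and 0.550 times at day 10, while each gene spanned more than 4 times in CPM (4.48 and 4.94). Without LPC day 10 replicate 3, Itgb3 ranked 5 by likeness to Gas6 (difference 0.12), and Itgb5 ranked 76 (0.28, against rank 352 and 0.66 with all libraries). The next genes after Itgb3 were Pcbp1, which encodes an RNA-binding protein, at 0.14 and Snd1, which encodes a nuclease domain protein, at 0.15.

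Mertk and Itgav formed the second closest pair, 0.16 apart. Itgav ranked 7 of the 7821 genes by likeness to Mertk, and 35 without LPC day 10 replicate 3. The genes nearest to Mertk were Cep350, which encodes a centrosomal protein (0.09), Helz, which encodes an RNA helicase (0.12), and the transcription factor gene Cux1 (0.12). They shared its high level in LPC day 10 replicate 3, with 502.9 CPM of Cep350 there and 197.1 to 228.7 CPM elsewhere. Every other pair of members was at least 0.62 apart (Axl and Mertk 0.66, Gas6 and Pros1 1.18). Likeness over 6 libraries is a description, and pairs were singled out after their values were seen.

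**Figure D4:**
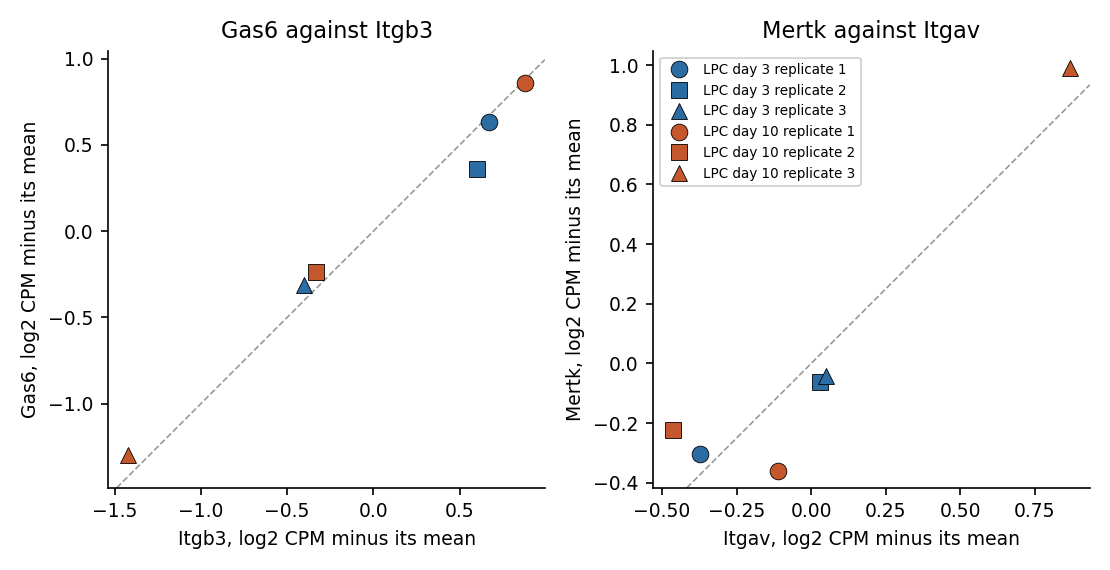
Log2 CPM of Gas6 against Itgb3 (left) and of Mertk against Itgav (right), each minus its mean over the 6 libraries, with blue for day 3, orange for day 10 and a dashed line of equal deviation. Gas6 and Itgb3 lay along the line from LPC day 10 replicate 3 up to LPC day 10 replicate 1, with a root mean square difference of 0.12, and Mertk and Itgav were 0.16 apart, with LPC day 10 replicate 3 far above the rest.

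The genes nearest to Axl were Tra2b (0.18) and Crnkl1 (0.26), which encode splicing factors, and Ptma (0.29), which encodes prothymosin alpha. Tra2b had 21.7, 30.0 and 60.2 CPM in the early lesion and 64.6, 61.2 and 70.5 in the late one, and so shared with Axl both the gap between time points and the higher level of LPC day 3 replicate 3. Those nearest to Mfge8 were farther away, Erdr1 at 0.44, Mir6236 at 0.60 and Rn18s-rs5, named for its relation to 18S ribosomal RNA, at 0.60. Rn18s-rs5 had 2475 CPM in LPC day 10 replicate 1 and 156.1 CPM in LPC day 10 replicate 2, the same extremes as Mfge8.

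Around the members stand the genes that expose phosphatidylserine, make the ligands active, shed the receptors and carry the engulfment signal. They were described in 8 lists with 66 genes, of which 64 were in the count table and 47 were tested. Of these 47, edgeR called 0 higher and 0 lower (against 0.114% of all genes), and 0 without LPC day 10 replicate 3. At an unadjusted p under 0.05 there were 3 higher and 0 lower, against 6.13% of all genes in either direction. These were Cd300lf, Elmo2 and Rhog, each highest in LPC day 10 replicate 3.

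Among signalling partners of the TAM receptors, 6 of 9 tested genes were positive (median change 0.48 on the log2 scale, 0.12 without LPC day 10 replicate 3). Pik3r1, the regulatory subunit of PI3 kinase, had 2329 CPM in LPC day 10 replicate 3 against 197.8 to 342.4 in the others. The log2 fold change was 1.61, and −0.42 without that library. Vav1, a guanine nucleotide exchange factor, had a log2 fold change of 0.08, and 0.38 without it.

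The shedding list holds Adam10 and Adam17, proteases that cut TAM receptors from the cell surface, and Rhbdf2, which matures Adam17. Of the 3 genes, 2 were negative (median −0.54, and −0.56 without LPC day 10 replicate 3). Adam17 had 375.2, 429.4 and 314.1 CPM in the early lesion and 215.1, 302.6 and 33.9 in the late one, below all early libraries, as in 4.97% of all genes tested (log2 fold change −1.02 ± 0.82, SE, n = 3, edgeR adjusted p = 0.999), and its change was −0.56 without LPC day 10 replicate 3. Adam10 had a log2 fold change of −0.54, and −1.07 without that library. For vitamin K-dependent carboxylation, which Gas6 and protein S need to bind phosphatidylserine, 2 genes were tested and both were negative (median −0.44). Without LPC day 10 replicate 3, 3 were tested, 1 positive and 2 negative (median −0.16). The carboxylase gene Ggcx moved from −0.72 to −0.16 without it, Vkorc1l1, of the vitamin K cycle, from −0.16 to −0.93, and Vkorc1, tested only then and with at most 2.15 CPM, was at 3.48. Ggcx had at most 27.7 CPM and was at 0 in LPC day 10 replicate 3.

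Of the 5 genes of phosphatidylserine exposure, 4 were positive (median 0.40), and 2 without LPC day 10 replicate 3 (median −0.27). The scramblase gene Ano6 had a log2 fold change of 0.44, and −1.35 without that library. Tmem30a, the partner subunit of the flippases, had 0.40, and −0.27 without it. Xkr8, a scramblase gene that caspases activate, was at 1.18, and 1.70 without it, with at most 16.8 CPM.

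Other receptors and bridges for apoptotic cells had 6 of 10 tested genes positive (median 0.22, and −0.03 without LPC day 10 replicate 3). The complement genes C1qb and C1qc, whose product coats dying cells, had 1369 to 1946 and 1683 to 2945 CPM at day 3 and log2 fold changes of −0.15 and −0.08 (−0.07 and −0.46 without that library). C1qa had 42.6, 21.4 and 24.6 CPM in the early lesion and 186.9, 49.1 and 43.3 in the late one, above all early libraries, as in 3.47% of all genes tested (log2 fold change 1.66, edgeR adjusted p = 0.983). Cd300lf, a phosphatidylserine receptor, had 5.50, 0.427 and 0.483 CPM in the early lesion and 9.32, 11.7 and 123.4 in the late one. On the log2 scale the change was 4.47 ± 1.63 (SE over 3 and 3 libraries, edgeR adjusted p = 0.462), against 2.27 once LPC day 10 replicate 3 was left out.

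Engulfment genes downstream of alpha v integrins had 4 of 8 positive changes (median −0.01, and −0.52 without LPC day 10 replicate 3). Rac1, the GTPase that drives actin around the target, had a log2 fold change of −0.10, and −0.59 without LPC day 10 replicate 3. Elmo1, its activator, turned from 0.08 to −0.63 without it. Rhog, a GTPase upstream of Elmo, reached 2093 CPM in LPC day 10 replicate 3 against 25.4 to 82.4 in the others (log2 fold change 4.11 at an edgeR adjusted p of 0.103, and 0.30 without that library). Elmo2 reached 335.4 CPM there, against 9.80 to 99.1 in the others (log2 fold change 2.48, and 0.99 without it).

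Further partners and ligands of alpha v integrins had 3 of 5 positive changes (median 0.10, and 0.49 without LPC day 10 replicate 3). Itgb1, the beta 1 subunit, had a log2 fold change of −0.89, and Tgfb1, whose latent form alpha v integrins activate, of 1.33 with all libraries and −0.17 without that library. Nuclear receptors and cofactors that are known to act on Mertk, Axl or Mfge8 were positive in 5 of 5 (median 0.33) and in 4 of 5 without it (median 0.24). Rxra, which encodes a retinoid X receptor, had a log2 fold change of 0.34, and Nr1h2, which encodes the liver X receptor beta, of 1.28 with 0.431 and 0.807 CPM in LPC day 10 replicates 2 and 3.

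Markers of other cells moved with the time points in part. The border-associated macrophage markers (6 of 7 in the count table) summed to 24.4, 93.4 and 89.9 CPM at day 3 and to 6.07, 6.996 and 6.19 CPM at day 10, mostly from the mannose receptor gene Mrc1 (19.8 to 93.2 and 3.87 to 6.19 CPM). In the same list Pf4 and Ms4a7 were at 0 in all day 3 libraries. Between time points Axl was the higher where this list was the lower, but within day 3 both were higher in replicate 3 than in replicate 1. Progenitor markers of oligodendrocytes summed to 104.2 CPM in LPC day 10 replicate 1, to 34.1 in replicate 2 and to at most 12.97 elsewhere, nearly all from Cspg4, with Pdgfra, Olig1, Olig2 and Gpr17 at 0 in all libraries. The endothelial list summed to 67.4 and 94.6 CPM in the same libraries, mostly from Flt1, and to at most 25.7 elsewhere, with Cldn5 and Tek at 0 throughout. The part of these cells in the member levels was not tested.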

How the data were processed

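Polyadenylated RNA of 6 libraries was measured after NuGEN Ovation amplification, per the labels' protocols, and count columns were joined to libraries through the sample number that the labels state. The authors' count table gives unnormalized counts by Ensembl identifier. The submitters' processing notes name GRCm38, STAR 2.5.2a, limma 3.30.8, edgeR 3.16.5 and R 3.3.2, with no role for each. The counting program and the strand are not stated in those sources. The authors' FPKM table has columns named by wt, microglia and time point but not by replicate, was used by group, and gave the symbols. The authors' comparison table holds log2 fold changes with unadjusted p-values. The sign there was opposite to day 10 minus day 3 in 96.1% of the genes tested.

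Day 10 was compared with day 3 across all genes by edgeR 4.0.16 under R 4.3.3 (TMM, filterByExpr at its minimum count of 10, quasi-likelihood F-test, group only, Benjamini-Hochberg over 10535 genes, called at an adjusted p under 0.05). The SE was derived as log2 fold change over the root of F, in absolute value. CPM is TMM-scaled, with a prior count of 2 on the log2 scale. Ratios used counts plus 0.5 and a two-sided exact permutation test (scipy 1.17.1, Python 3.11.15). Positions and exon lengths came from GENCODE M21 (GRCm38). Alternatives used DESeq2 1.42.0 and limma 3.58.1. The fit was tested on simulated data for this comparison, with 50 genes at each upward log2 fold change of 1, 2, 4 and 6. It called 0%, 2%, 48% and 92% of them, and 3 of 9528 unchanged genes. The changed genes were drawn without those of lowest level, and decreases were not simulated.

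Members, lists and tests were chosen with earlier results of these data known. Named besides the members were, per pathway list, the 2 genes of highest mean CPM and the 2 of smallest p, and for Axl, Mertk, Mfge8 and Gas6 the 3 genes of most similar pattern with a mean of at least 5 CPM (Gm and Rik symbols left out). Other genes were named after their values were seen. Some genes that the rule names are not reported here. Of 159 listed genes 144 were in the count table, and the rest were not used here. No molecular identifiers are named in the labels, so floors cover counting error only. Each library is given as 1 mouse only through the design text, so p-values measure the spread between these libraries.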

Additional observations from a re-analysis of the deposited data

How the results depend on the processing

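Each of the 18 alternatives called 0 members, where 0 to 211 of the 10535 to 19635 genes tested were called. Axl, Pros1 and Itgb3 kept their direction under all 18. Axl ranged from 1.07 to 1.33 over 12 other settings and from 0.92 to 1.53 when a library was left out. Pros1 ranged from −1.45 to −0.52 and from −2.23 to −0.53, and Itgb3 from −0.61 to −0.10 and from −1.15 to −0.00449. Directions turned for Gas6 with library-size scaling (0.0043). They turned with sample quality weights in limma-voom for Mertk (−0.023), Mfge8 (−1.07), Itgav (−0.12) and Itgb5 (−0.24). With libraries left out in turn, the log2 fold change ran from −0.19 to 0.63 for Mertk, from −0.96 to 0.10 for Gas6, from −0.22 to 0.53 for Itgav and from −0.30 to 0.58 for Itgb5, the sign turning without LPC day 10 replicate 3 (replicate 1 for Itgb5). The cause was not tested.

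The number of genes called, 12 in the main test, was 0 with RLE or library-size scaling, 10 with upper quartile, 118 with no low-count filter, 21 with at least 1 CPM in at least 3 libraries, 63 with DESeq2, 1 with limma-voom, 3 with sample quality weights, 0 with limma-trend on FPKM (pseudocount 1 or 0.1, or a mean FPKM of at least 1), and 1 to 211 in leave-one-out fits. The median over all genes shifted to 0.22 without the filter, 0.13 with RLE, 0.12 with DESeq2, −0.13 with the replicate block and −0.27 to 0.14 in leave-one-out fits. Member changes in those fits are given as fitted, without subtraction of this median. With the replicate number as a replicate block 0 genes and 0 members were called. Across genes, deviations of same-numbered libraries correlated at 0.07, −0.04 and 0.01, and those of differently numbered libraries at −0.08 to 0.06. Whether same-numbered libraries share more than a number was not tested. Ratios kept their direction in all alternatives (with a library left out, Axl to Mertk 0.63 to 1.27, Gas6 to Pros1 0.26 to 1.71 and Itgb5 to Itgb3 0.10 to 1.11). Depth limits Mfge8, with 3 counts in LPC day 10 replicate 2, and Tyro3.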
